A study of Homo sapiens with 4 samples.

Results

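ARG2 and 9 genes of polyamine metabolism were measured in LNCaP-derived cells before and after induction of a methyl-CpG targeted transcriptional activator. The members were ARG2, ODC1, OAZ1, AZIN1, AMD1, SRM, SMS, SAT1, PAOX and SMOX, and every array probe whose RefSeq transcript belongs to one of them was taken, which gave 14 probes for the 10 genes out of 25422 probes for 19483 genes named on the array. ARG2 was picked with its lower signal after tetracycline already known, and the other 9 as genes of the same pathway, so the members' values below are a description and carry no test. TR9_MeTA14 and TR15_MeTA5 cells were both made from LNCaP, a line from human prostate cancer, by stable transfection of a Tet repressor plasmid (which gave the parents TR9 and TR15) and then of NFκB (AD)-MBD, a fusion of an NFκB activation domain with a methyl-CpG binding domain. All 4 groups therefore carried the repressor and the inducible construct, and they were the TR9_MeTA14 line without tetracycline (-Tet) or with it for 4 days (+Tet) and the TR15_MeTA5 line likewise. Each group was 1 array, so no value has a replicate. Cells of the parent lines given tetracycline were not analysed here, so an effect of tetracycline and one of the activator cannot be told apart.

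Polyamines (putrescine, spermidine and spermine) are small cationic molecules that bind nucleic acids and are needed for cell growth, and the prostate is known for making and secreting large amounts of them. Arginase splits arginine into urea and ornithine, ornithine decarboxylase turns ornithine into putrescine, and the 2 synthases add aminopropyl groups from decarboxylated S-adenosylmethionine to give spermidine and then spermine. Acetylation by SAT1 followed by oxidation by PAOX, or direct oxidation of spermine by SMOX, runs the path backwards, while antizyme and antizyme inhibitor set the amount of ornithine decarboxylase protein.

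The activator is built to bind methylated CpG sites, and the sequences before the start sites of 4 genes on which the results turn are therefore shown. They are ARG2, AMD1 and SAT1 of the members and OAT, which encodes ornithine aminotransferase, the mitochondrial enzyme that uses the ornithine arginase makes. Each run is the 250 bases before the annotated start, from RefSeq on GRCh38.p14, written 5′ to 3′ along the gene's strand with every CpG in capitals. ARG2 lies at chr14:67619670-67619919 (+ strand), AMD1 at chr6:110874535-110874784 (+), SAT1 at chrX:23782923-23783172 (+) and OAT at chr10:124418924-124419173 (-).
ARG2: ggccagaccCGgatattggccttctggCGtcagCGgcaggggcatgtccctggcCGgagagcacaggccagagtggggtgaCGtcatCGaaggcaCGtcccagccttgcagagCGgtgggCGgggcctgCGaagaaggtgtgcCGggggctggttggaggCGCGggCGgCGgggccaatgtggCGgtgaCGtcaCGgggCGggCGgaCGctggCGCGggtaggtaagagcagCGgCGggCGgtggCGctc
AMD1: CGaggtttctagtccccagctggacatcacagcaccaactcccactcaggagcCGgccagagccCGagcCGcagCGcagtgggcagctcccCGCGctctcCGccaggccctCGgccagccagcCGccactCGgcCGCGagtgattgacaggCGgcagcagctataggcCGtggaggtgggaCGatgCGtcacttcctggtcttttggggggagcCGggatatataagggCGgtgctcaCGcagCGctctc
SAT1: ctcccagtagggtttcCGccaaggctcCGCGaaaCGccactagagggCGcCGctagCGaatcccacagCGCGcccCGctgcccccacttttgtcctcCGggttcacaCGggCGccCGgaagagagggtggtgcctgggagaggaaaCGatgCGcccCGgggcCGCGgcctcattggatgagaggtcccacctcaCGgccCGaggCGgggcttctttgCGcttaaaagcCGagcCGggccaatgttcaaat
OAT: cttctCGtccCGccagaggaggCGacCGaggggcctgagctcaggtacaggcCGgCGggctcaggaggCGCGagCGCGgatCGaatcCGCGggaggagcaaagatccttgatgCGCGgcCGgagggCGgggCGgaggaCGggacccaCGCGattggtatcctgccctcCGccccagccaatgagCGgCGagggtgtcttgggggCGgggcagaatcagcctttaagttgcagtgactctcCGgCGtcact
These stretches held 27, 21, 25 and 27 CpG sites in ARG2, AMD1, SAT1 and OAT. Over the window from 250 bases before to 50 bases after the start, the 7 members with a sequence in the table had 31 (ARG2), 43 (ODC1), 26 (AMD1), 48 (SRM), 35 (SMS), 32 (SAT1) and 42 (OAZ1) CpG sites, and OAT had 33. AZIN1, PAOX and SMOX were not in the table. The median was 14 over all 27305 promoters, 23 over 839 genes at least 2-fold higher with tetracycline in both lines, 25 over 87 genes at least 2-fold lower in both and 25 over 10203 other measured genes. ARG2 was picked as low and OAT was the pathway gene with the highest ratio. Nothing about CpG content is read from the counts of these 2 genes, and its part in either change was not tested. Methylation was not measured on these arrays. The palindrome TGACGTCA, the consensus of the cyclic AMP response element, occurred at 2 places in the ARG2 run, with first bases 172 and 64 bases before the start. It was looked for after the sequence had been seen. In the same window it occurred at least once in 540 of 27305 promoters (1.98%), at 2 or more places in 18 (0.0659%), and in no other member with a sequence.

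All 14 member probes were well above background on all 4 arrays by the scanner software's own flag, and no spot was saturated. The signals given below are processed intensities as deposited. The ratios are differences of log2 signals after the 75th percentile of each array was subtracted, so they are not the plain quotient of the signals printed. Those percentiles were 617 and 777 in TR9_MeTA14 -Tet and +Tet and 367 and 542 in TR15_MeTA5 -Tet and +Tet. Probes spotted many times on each array gave an SD of 0.0867 for a log2 ratio. This covers spot error only, and the spread between cultures is unknown. PYCARD, the gene the study followed up, was below background on both -Tet arrays and well above it on both +Tet arrays. Of 7 luminal prostate markers, 7 were well above background on every array, while the basal markers KRT5, KRT14 and TP63 and the fibroblast marker COL3A1 were below it on every array. The single probes of CDH5 and COL1A1 were above background on all 4 arrays, as was 1 of 4 probes of PTPRC, and 1 of 3 probes of PECAM1 was on both +Tet arrays.

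ARG2, the mitochondrial arginase, was the member with the lowest ratio in both cell lines. Its signal was 4982 -Tet and 627 +Tet in TR9_MeTA14, and 8458 -Tet and 3083 +Tet in TR15_MeTA5. After scaling it was 10.0-fold lower with tetracycline in TR9_MeTA14 (log2 ratio -3.32) and 4.06-fold lower in TR15_MeTA5 (-2.02). Within each line the +Tet array was thus the low one. In bulk RNA, fewer cells that express a gene and less of its RNA per cell cannot be told apart. In scaled level the 4 arrays stood in the order TR15_MeTA5 -Tet, TR9_MeTA14 -Tet, TR15_MeTA5 +Tet and TR9_MeTA14 +Tet. The log2 steps were 1.52, 0.51 and 2.82, each over 2 SD of the spot error of replicated probes (0.173). ARG2 has 1 probe with 1 spot per array, so its own spot error was not measured. With spike-in scaling the first step, between the -Tet arrays, was 0.46. Of genes with a ratio, 74 of 15076 had a lower one than ARG2 in TR9_MeTA14 and 34 of 14342 in TR15_MeTA5. None of the other genes among 13976 with a ratio in both lines was as low as ARG2 in both. That count was 2 after quantile normalization and 4 with plain ratios that keep dim probes. ARG2 was picked with its lower signal on these arrays known, so its ranks only describe that choice.

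**Figure D1:**
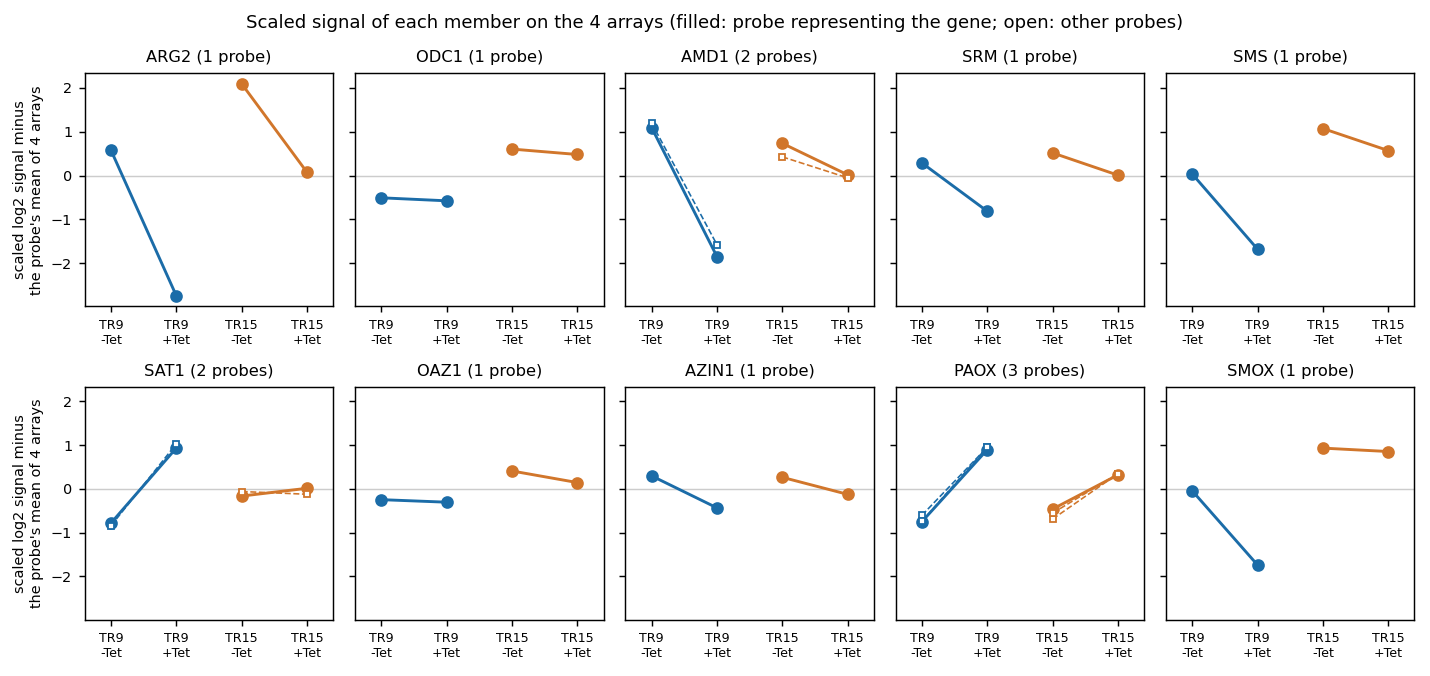
Scaled log2 signal of each member on the 4 arrays (x axis: cell line and treatment; y axis: log2 units, minus the probe's own mean of the 4 arrays; 1 array per point, no error bars), with filled circles for the probe that represents the gene, open squares for its other probes and lines joining -Tet to +Tet within a line. ARG2 drops steeply in both lines (-3.32 and -2.02), AMD1, SMS and SMOX mainly in TR9_MeTA14, and SAT1 and PAOX go up in TR9_MeTA14 (1.71 and 1.64).

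ODC1, the ornithine decarboxylase that commits ornithine to polyamines, differed little with tetracycline. Its signal was 18438 and 22128 in TR9_MeTA14 -Tet and +Tet and 23680 and 32140 in TR15_MeTA5 -Tet and +Tet. The log2 ratios were -0.069 in TR9_MeTA14 and -0.12 in TR15_MeTA5, both within 2 SD of spot error, and their sign turned with scaling (up to 0.12 in TR9_MeTA14 and 0.31 in TR15_MeTA5). OAZ1, the antizyme that sends ODC1 to the proteasome, had the signals 136987 and 165627 in TR9_MeTA14 and 128103 and 157682 in TR15_MeTA5, again -Tet before +Tet. Its log2 ratios of -0.058 and -0.26 likewise turned positive under other scalings, up to 0.78 and 0.19. AZIN1, the antizyme inhibitor that frees ODC1, gave 2416 and 1834 in TR9_MeTA14 and 1403 and 1584 in TR15_MeTA5. Its log2 ratios were -0.73 and -0.39, short of 2-fold, and with spike-in scaling that in TR15_MeTA5 became 0.043. ODC1, OAZ1 and AZIN1 were therefore all short of 2-fold in both lines.

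AMD1, which makes the decarboxylated S-adenosylmethionine that both synthases use, was the second lowest member. Its brightest probe gave 35786 in TR9_MeTA14 -Tet and 5850 in TR9_MeTA14 +Tet, a 7.70-fold lower scaled level (log2 ratio -2.94). In TR15_MeTA5 it gave 16552 -Tet and 14869 +Tet, a log2 ratio of -0.72. The other AMD1 probe, on the same transcript, had ratios of -2.78 and -0.48, so both probes put the gene far down in TR9_MeTA14 and short of 2-fold in TR15_MeTA5.

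SMS, the spermine synthase, had signals of 2885 and 1104 in TR9_MeTA14 -Tet and +Tet and of 3516 and 3667 in TR15_MeTA5. The scaled log2 ratios were -1.72 (3.29-fold lower) and -0.50. SRM, the spermidine synthase, gave 7931 and 4650 in TR9_MeTA14 and 5521 and 5740 in TR15_MeTA5. Its log2 ratios were -1.10 and -0.51, and spike-in scaling brought the first to -0.96, short of 2-fold. AMD1, SRM and SMS are the 3 genes that build spermidine and spermine from putrescine. With percentile scaling all 3 were past 2-fold lower in TR9_MeTA14, where 15.1% of all genes were at least 2-fold lower. With spike-in scaling AMD1 and SMS were, and SRM was not. In TR15_MeTA5 all 3 were short of 2-fold lower, where 2.21% of all genes were at least 2-fold lower. No pattern of the pathway is read from this count.

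SAT1, the acetyltransferase that starts the breakdown of spermidine and spermine, was the member with the highest ratio in TR9_MeTA14. The signals were 11663 -Tet and 48143 +Tet in TR9_MeTA14 and 10622 and 17765 in TR15_MeTA5. This was 3.28-fold higher in TR9_MeTA14 (log2 ratio 1.71). In TR15_MeTA5 the log2 ratio was 0.18, and 0.61 with spike-in scaling. A second SAT1 probe gave 1.87 and -0.062, so in TR15_MeTA5 the probes had opposite signs. PAOX, the peroxisomal oxidase of acetylated polyamines, had 3 probes on 3 transcripts. The brightest gave 1242 and 4882 in TR9_MeTA14 and 901 and 2287 in TR15_MeTA5, with log2 ratios of 1.64 (3.12-fold higher) and 0.78. Its probes gave ratios between 1.55 and 1.70 in TR9_MeTA14, and between 0.78 and 1.03 in TR15_MeTA5. PAOX was the member with the highest ratio in TR15_MeTA5, and 1 of its 3 probes, a dimmer one, was past 2-fold there (1.03). With spike-in scaling the brightest PAOX probe was past 2-fold in TR15_MeTA5 too (1.21).

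SMOX, the oxidase that turns spermine directly into spermidine, went the other way from SAT1 and PAOX in TR9_MeTA14. Its probe was spotted 10 times per array, with an SD of log2 signals between 0.0613 and 0.0999. The mean signals were 186 -Tet and 72.4 +Tet in TR9_MeTA14 and 217 and 304 in TR15_MeTA5. The log2 ratios were -1.69 (3.24-fold lower) and -0.078. It was the dimmest member, and with normexp background correction the ratio in TR9_MeTA14 was -1.02. In TR15_MeTA5 spike-in scaling turned the sign (0.35).

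In TR9_MeTA14, 5 of the 10 members (ARG2, AMD1, SRM, SMS, SMOX) were at least 2-fold lower and 2 (SAT1, PAOX) at least 2-fold higher, where 15.1% and 16.8% of all genes with a ratio were. In TR15_MeTA5 1 member, ARG2, was at least 2-fold lower, against 2.21% of genes, and 0 were higher, against 9.78%. In both lines, 1 member (ARG2) was at least 2-fold lower where 0.837% of genes were, and 0 were higher where 8.21% were. The members' median log2 ratio was -0.92 in TR9_MeTA14 and -0.33 in TR15_MeTA5, and that of all genes was -0.064 and -0.16. ARG2's own ratio is among the values that led to its choice, so nothing is read from these shares. Whether the lines differed in response was not tested, because 4 arrays cannot give both that term and an error.

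**Figure D2:**
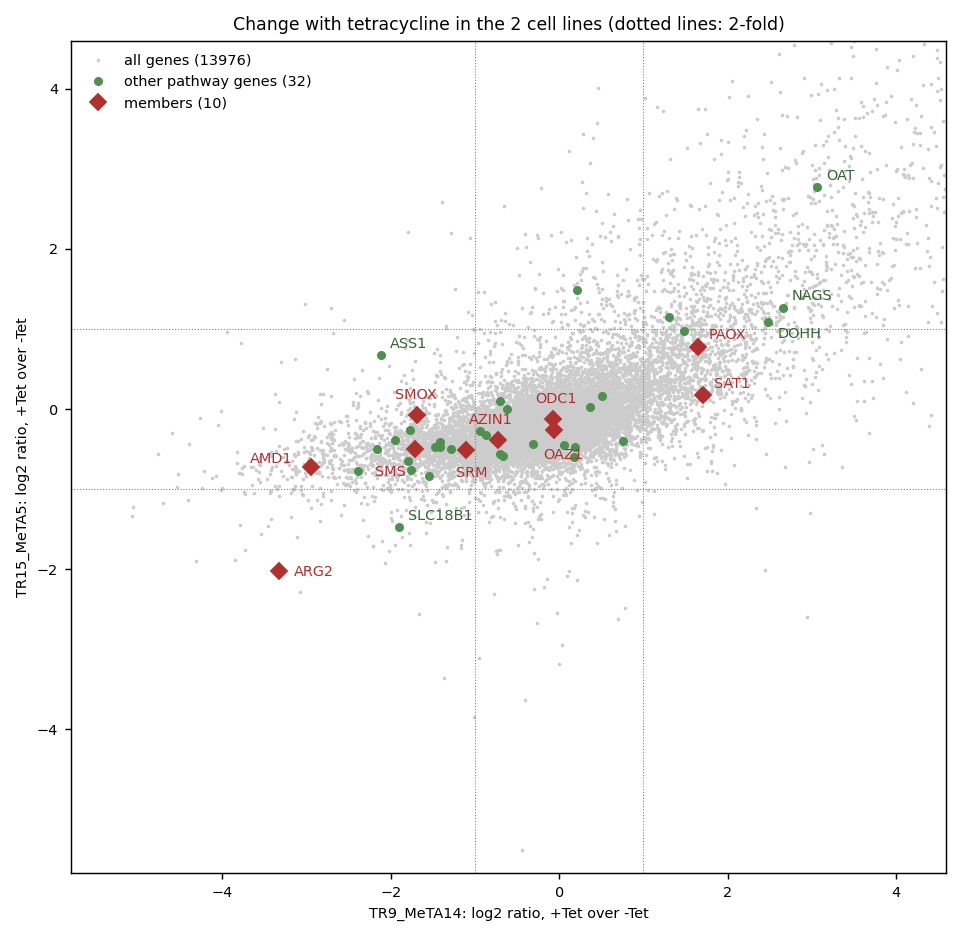
Log2 ratio of +Tet over -Tet in TR9_MeTA14 (x axis) against TR15_MeTA5 (y axis), 1 point per gene, for 13976 genes with a ratio in both lines (grey), 32 other pathway genes (green) and the 10 members (red). The axes leave out 271 genes, and ARG2 lies apart at the lower left (-3.32, -2.02) while most other members spread along the x axis near a y value of 0.

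A difference between the log2 ratios of 2 genes on the same arrays cancels any factor that multiplies a whole array, though not quantile normalization or another background correction. The pairs were chosen after their values were seen. SAT1 over AMD1 was 25.3-fold higher in +Tet than in -Tet in TR9_MeTA14 (difference of log2 ratios 4.66) and 1.86-fold in TR15_MeTA5 (0.90). PAOX over SMOX was 10.1-fold higher in TR9_MeTA14 (3.34), or 6.19-fold with normexp, and 1.81-fold in TR15_MeTA5 (0.86). ARG2 over ODC1, the 2 enzymes in sequence from arginine to putrescine, was 9.54-fold lower in TR9_MeTA14 (-3.25) and 3.72-fold lower in TR15_MeTA5 (-1.90). These figures show unequal change within the arrays and not which gene of a pair moved.

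Between the cell lines, 8 of the 10 members had the higher level in TR15_MeTA5 without tetracycline by 75th percentile scaling, but only 2 by spike-in scaling. Of all genes, 5789 of 13793 had a ratio below 0 there by 75th percentile scaling. The median over all genes was 0.12 by that scaling and -0.93 by spike-in scaling. Without tetracycline 3 members were at least 2-fold higher in TR15_MeTA5, namely ARG2 (log2 ratio 1.52), ODC1 (1.11) and SMS (1.04), where 8.17% of genes were, and 0 were lower, where 5.19% were. With tetracycline 5 were higher, where 14.2% were, namely ARG2 (2.82), SMOX (2.59), SMS (2.25), AMD1 (1.86) and ODC1 (1.06). None was at least 2-fold lower there, where 10.4% of genes were, and SAT1 (-0.92) and PAOX (-0.58) had the only ratios below 0. ARG2, ODC1 and SMS were 2-fold higher under both treatments, as were 3.39% of genes, and no member was lower under both (2.2% of genes).

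These line differences rest on the scaling. Scaling on 8 spike-in probes moved the median log2 ratio of all genes by -1.04 among the -Tet arrays and by -0.73 among the +Tet arrays, but by 0.14 and 0.43 for tetracycline in TR9_MeTA14 and TR15_MeTA5. The share of higher among all 2-fold calls went with it from 61.2% to 2.39% among the -Tet arrays and from 57.8% to 13% among the +Tet arrays. Without tetracycline ARG2 then differed by 0.46, ODC1 by 0.058 and SMS by -0.018, a turn of sign. With tetracycline ARG2 (2.05), SMOX (1.83), SMS (1.49) and AMD1 (1.10) stayed past 2-fold higher in TR15_MeTA5, and SAT1 (-1.68) and PAOX (-1.34) were past 2-fold lower. The lower ARG2 signal with tetracycline was past 2-fold under all 9 settings in both lines, between -3.42 and -3.18 in TR9_MeTA14 and between -2.02 and -1.59 in TR15_MeTA5.

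**Figure D3:**
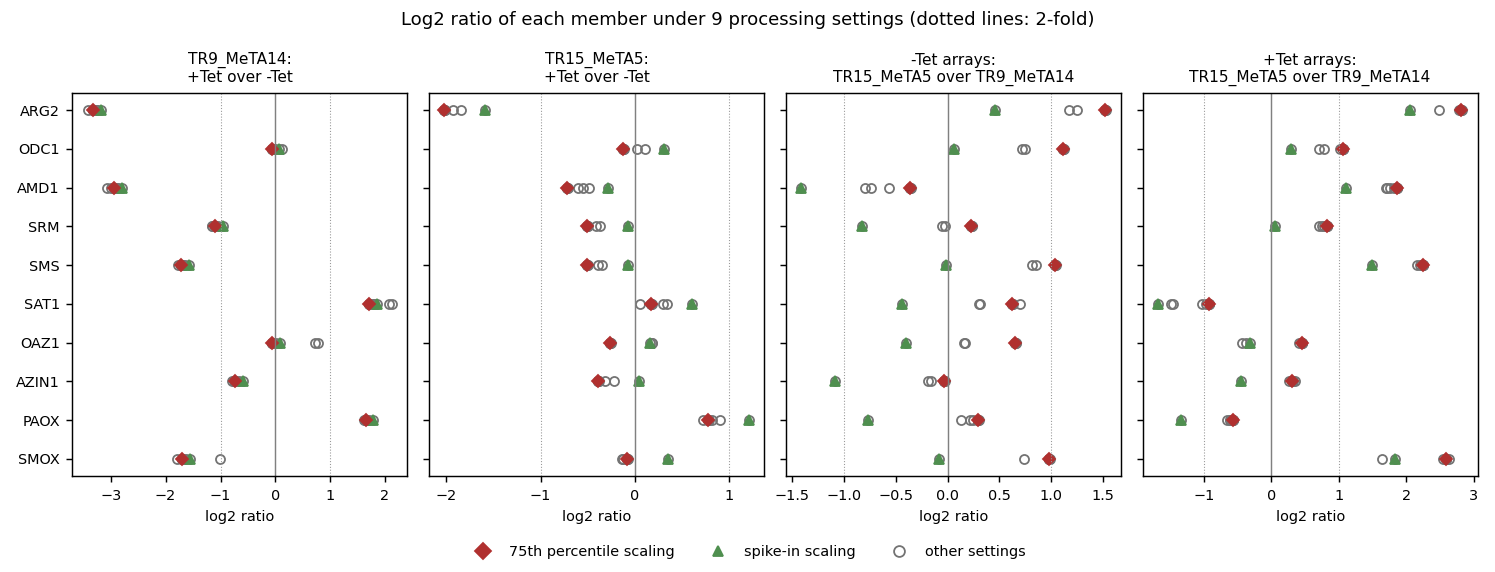
Log2 ratio (x axis) of each member (y axis) for tetracycline in each line (left panels) and for TR15_MeTA5 over TR9_MeTA14 at each treatment (right panels), with a red diamond for 75th percentile scaling, a green triangle for spike-in scaling and open circles for 7 other settings. ARG2 keeps below -1 for tetracycline in both lines, ODC1 and OAZ1 lie on both sides of 0 in both lines, AZIN1 and SMOX do so in TR15_MeTA5, and the line differences shift left with spike-in scaling.

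Of 41 other genes of arginine, ornithine, methionine and polyamine handling, 40 had a probe (DHPS had none), and 33 had a ratio in each line. In TR9_MeTA14 13 of the 33 were at least 2-fold lower and 6 at least 2-fold higher, where 15.1% and 16.8% of all genes were. In TR15_MeTA5 1 was lower and 5 higher, where 2.21% and 9.78% of all genes were. Their median log2 ratios were -0.70 and -0.39. Past 2-fold in both lines were OAT, NAGS, AZIN2 and DOHH on the higher side and SLC18B1 on the lower side.

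OAT had signals of 258 and 2712 in TR9_MeTA14 -Tet and +Tet and of 159 and 1610 in TR15_MeTA5. It was the pathway gene with the highest ratio in both lines, with 3.06 in TR9_MeTA14 and 2.77 in TR15_MeTA5 on the log2 scale. OAT and ARG2, which use and make ornithine, thus lay at opposite ends of the pathway's ratios. OAT over ARG2 was 83.5-fold higher with tetracycline in TR9_MeTA14 and 27.8-fold in TR15_MeTA5, or 65.4-fold and 20.7-fold with normexp. ARG2 was picked as low and OAT was the highest pathway gene, so a large ratio was built into this pair. Among the other arginine and ornithine genes, NAGS, which makes the activator of the urea cycle's first enzyme, had log2 ratios of 2.65 and 1.27. CPS1, that first enzyme, had -1.42 and -0.48, the lowest of its group over both lines.

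The transporters of arginine and ornithine with a ratio, 3 of 5 listed, were all at least 2-fold lower in TR9_MeTA14 and none was in TR15_MeTA5, where 15.1% and 2.21% of all genes were. SLC7A1, the main cationic amino acid carrier of the plasma membrane, had log2 ratios of -2.38 and -0.77, and SLC25A15, the mitochondrial ornithine carrier, -1.77 and -0.27. Of 10 genes of the methionine cycle and of salvage of methylthioadenosine, the by-product of both synthases, 4 were at least 2-fold lower in TR9_MeTA14 (15.1% of all genes) and 0 in TR15_MeTA5 (2.21%), with none higher in either line (16.8% and 9.78%). MAT2A, the S-adenosylmethionine synthetase of most tissues, had -1.76 and -0.77, and MAT2B, its regulatory subunit, 0.75 and -0.39.

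Of 10 measured genes of polyamine control, transport, oxidation and use, 3 were at least 2-fold higher and 3 lower in TR9_MeTA14 (16.8% and 15.1% of all genes), and 2 higher and 1 lower in TR15_MeTA5 (9.78% and 2.21%). DOHH, the hydroxylase that completes hypusine on the translation factor EIF5A from spermidine, had log2 ratios of 2.49 and 1.09. AZIN2, a relative of AZIN1, had 1.31 and 1.14. SLC18B1, a vesicular polyamine carrier, had -1.90 and -1.47. It was, with ARG2, 1 of 2 pathway genes at least 2-fold lower in both lines, where 0.837% of all genes were. With normexp background correction OAT alone of the 4 higher genes was past 2-fold in both lines.

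**Figure D4:**
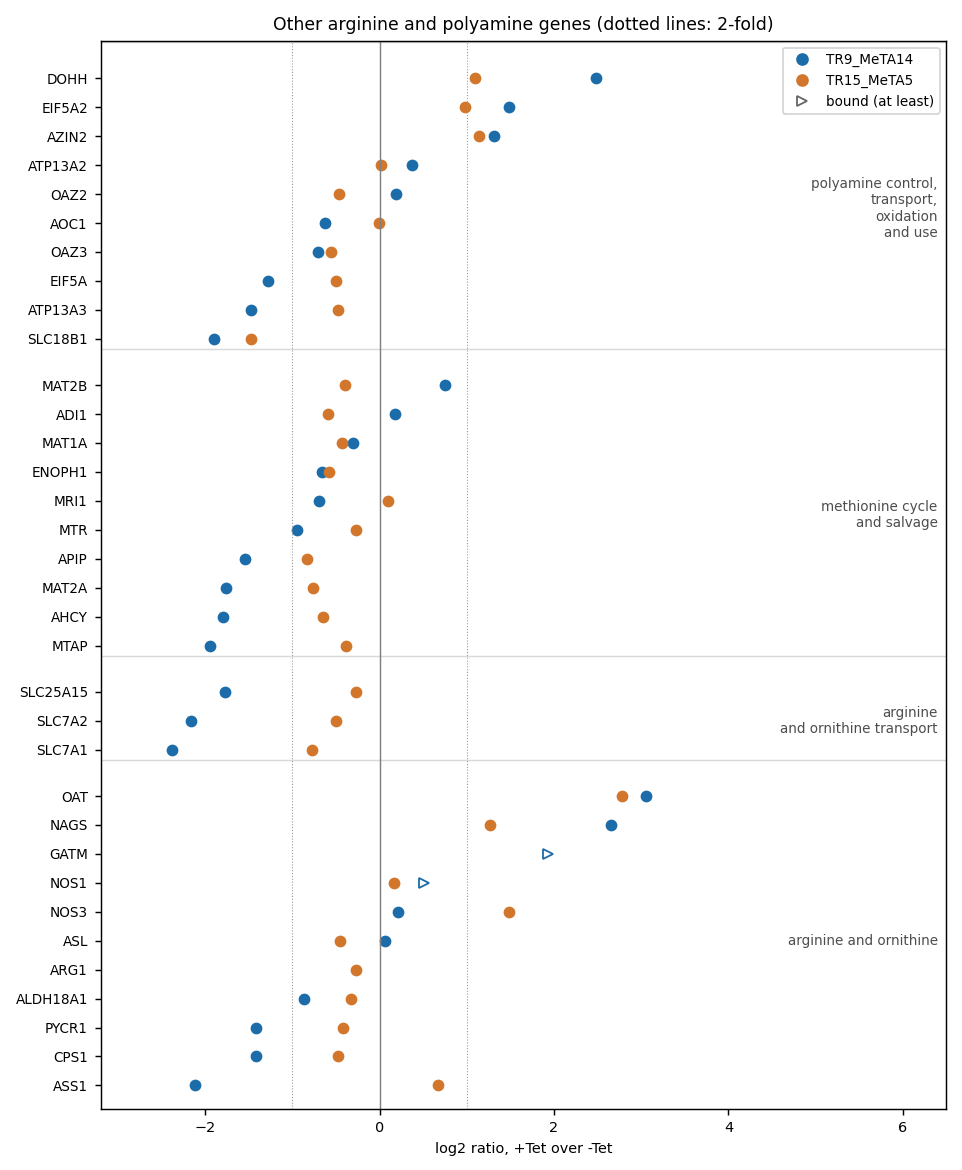
Log2 ratio of +Tet over -Tet (x axis) of the other pathway genes with a ratio in at least 1 line (y axis, in 4 groups), blue for TR9_MeTA14 and orange for TR15_MeTA5, with open triangles where only a lower bound could be given. OAT lies to the right in both lines (3.06 and 2.77), and the blue points of all 3 transporters lie to the left of -1 (-2.38 to -1.77) while their orange points do not.

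With the lines taken as replicates, limma with line as a block tested 33 of these genes among 22810 probes, of which 2.6% were called higher and 0.0132% lower at an adjusted p of 0.05. It called 1 of the 33 higher, OAT (log2 fold change 2.92, SE 0.26, adjusted p = 0.0234 by limma with Benjamini-Hochberg adjustment, higher in 2 of 2 lines), and 0 lower. At an unadjusted p under 0.05, 5 were higher and 9 lower, and 19.5% of all probes passed that limit. The 9 became 1 with spike-in scaling and 4 without the line block, while the 5 stood under both. The fit has 1 residual degree of freedom. The members were left out of this test, as ARG2 was chosen on these arrays. The wider list was also drawn up with earlier results of these arrays known, so the p-value of OAT is not independent evidence.

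The genes whose pattern over the 4 arrays was most like that of ARG2 were LRRD1, NEURL1, TOP2A, HMMR and CDK1, by root mean square difference between centred log2 levels (0.22, 0.35, 0.36, 0.37 and 0.37) among 12693 genes well above background on the same arrays. LRRD1, the closest, had log2 ratios of -3.85 in TR9_MeTA14 and -1.88 in TR15_MeTA5, NEURL1 -2.88 and -1.13, and HMMR -3.15 and -0.99. TOP2A, a topoisomerase of dividing cells, had -3.19 and -1.05, and CDK1, the mitotic kinase, -3.04 and -1.07. Among the members SMS (0.82), AMD1 (0.85) and SMOX (0.92) came closest, with 264, 293 and 377 genes closer to ARG2 than they were. Some genes outside the pathway were thus nearer to ARG2 than any member was, but only a few of the 12693 genes compared were members. Nothing about the pathway is read from that. Several markers of luminal prostate cells also had lower levels with tetracycline. KLK2, a kallikrein secreted by these cells, had log2 ratios of -4.00 and -0.98, and KLK3, which encodes prostate-specific antigen, -1.95 and -0.70. Over the 7 markers the ratios ran from -4.00 (KLK2) to 0.24 (KRT8) in TR9_MeTA14, with 4 at least 2-fold lower where 15.1% of all genes were. In TR15_MeTA5 they lay between -0.98 and -0.35, with 0 at least 2-fold lower where 2.21% of all genes were. Their summed signal was 283781 and 132190 in TR9_MeTA14 -Tet and +Tet and 227954 and 212401 in TR15_MeTA5. The part of these changes in the ARG2 result was not tested.

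ARG2 did not share its ratio with the genes beside it on chromosome 14. PIGH, the nearest measured gene before it, had log2 ratios of -0.62 and -0.35, and VTI1B, which overlaps ARG2 in the annotation, -0.21 and -0.23. The ARG2 probe lies on its RefSeq transcript, and VTI1B, with signals of 10018, 10937, 5462 and 6865 on the TR9_MeTA14 pair and then the TR15_MeTA5 pair, -Tet first, showed no such drop.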

How the data were processed

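One-colour (Cy3) expression profiling used 4 Agilent arrays on a single slide. Each held RNA of 1 condition, TR9_MeTA14 or TR15_MeTA5 without tetracycline or 4 days after it was added. The authors deposited the processed signal intensity of every spot, background-subtracted within the array and not normalized between arrays. The file headers name Feature Extraction 10.7.3.1 and an array design on hg19, and the submitters' processing notes name version 9.5.1. The series-wide table that was also deposited repeats these intensity values on all 44495 rows.

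Groups came from the sample labels. From 255 to 344 outlier spots per array were left out, log2 signals were averaged per probe, and the 75th percentile over 34127 probes was subtracted. Between 20566 and 24222 probes per array were well above background. Where only the brighter array of a pair was, the fold is a bound. For it the dimmer array took the higher of its own signal and its lowest signal well above background (13.9 to 19.2). Probes were named by RefSeq accession (74.5% to 1 gene), and the probe of highest mean signal represented a gene. Genes were called at 2-fold with no test. The genes named were all members, other pathway genes past 2-fold in both lines, the extremes of each group, the neighbours of ARG2 and the 5 genes most like it. One gene of the marker list is not reported here. The members and lists were chosen with earlier results of these data known. limma 3.58.1 in R 4.3.3, tested on simulated data, served the wider list. Alternatives were quantile, median and spike-in scaling, normexp (offset 50, median pixel intensities), all spots, the mean over probes, stricter and no filters, plain ratios, other folds, no block and no trend. CpG sites were counted in RefSeq promoter windows, and 7 of 10 members matched. Python 3.11.15, numpy 2.4.6 and pandas 2.3.3 did the rest.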

Additional observations from a re-analysis of the deposited data

Results flagged for a closer look

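In 4 genes of the wider pathway list the cell lines had log2 ratios of opposite sign with tetracycline, each beyond 2 SD of spot error (0.173). The difference between the lines was not tested. In 2 more, ASL and MRI1, the signs were opposite with 1 of the ratios within that error. ASS1, the argininosuccinate synthase that rebuilds arginine from citrulline, had a log2 ratio of -2.11 in TR9_MeTA14 and 0.67 in TR15_MeTA5, a difference (TR15_MeTA5 minus TR9_MeTA14) of 2.79, with opposite signs under 9 of 9 settings. MAT2B had 0.75 and -0.39, a difference of -1.15, opposite under 8 of 9. ADI1, a methionine salvage dioxygenase, had 0.18 and -0.60, a difference of -0.78, opposite under 8 of 9. A dimmer ADI1 probe on the same transcript had -0.31 and -0.60, so its signs were not opposite. The dimmer probes of ASS1 and MAT2B did keep opposite signs. OAZ2, a second antizyme, had 0.19 and -0.47, a difference of -0.66, opposite under 9 of 9. These counts of settings take the sign alone, however small the ratio. Spike-in scaling moved the median log2 ratio of all genes in TR15_MeTA5 by 0.43, close to the size of the OAZ2 ratio there. The ratios of ADI1 and OAZ2 in TR9_MeTA14 lie just past 2 SD of spot error (0.173). The share of all genes with such opposite signs is not given here.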

How the results depend on the processing

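No replicate could be left out, as each group holds 1 array. Counts of called members and called pathway genes stayed within 1.5 times, and the ARG2 ratios within spot error, under median scaling, all spots kept and the filter on all 4 arrays, as did limma's calls in the list without the line block or the intensity trend. The filter on all 4 arrays cannot change a member's ratio, as every member probe passes it. For ARG2 the log2 ratio in TR9_MeTA14 (-3.32) became -3.42 with quantile normalization and -3.18 with spike-in scaling. That in TR15_MeTA5 (-2.02) became -1.84, -1.59 and, with normexp, -1.92. Spike-in scaling made 1 member at least 2-fold higher in TR15_MeTA5 and in both lines (0 before), 2 lower among both the -Tet and the +Tet arrays (0 before), and 0 higher among the -Tet arrays and under both treatments (3 before), and it turned the sign of SMS among the -Tet arrays (-0.018 in place of 1.04). Over all genes that scaling put 2152 of 14346 at least 2-fold higher in TR15_MeTA5. Among the -Tet arrays it put 155 of 14106 higher and 6337 lower, and among the +Tet arrays 5033 of 15255 lower. Quantile normalization and normexp each left 1 member higher among the -Tet arrays and under both treatments, and put 1 lower among the +Tet arrays, as did the mean over probes. Of all genes, 827 of 13966 (quantile) and 348 of 14084 (normexp) were higher among the -Tet arrays. Lower among the +Tet arrays were 1745 of 14782 (quantile), 1116 of 15083 (normexp) and 1457 of 14633 (mean over probes). A 3-fold threshold left 0 members higher among the -Tet arrays and under both treatments. At 1.5-fold, 1 member was higher in TR15_MeTA5 and in both lines, 2 lower in TR15_MeTA5 and in both lines, 6 higher among the -Tet arrays and 1 lower among the +Tet arrays. Shares of all genes past 3-fold and 1.5-fold are not given here. Nothing is read from these counts of members, or from those of the wider list that follow. In the wider list normexp left 2 genes higher in TR15_MeTA5 (5 before) and 1 in both lines (4 before), 3-fold left 1 and 1, with 8 lower in TR9_MeTA14 (13 before) and 0 lower in TR15_MeTA5 or both (1 before), 1.5-fold gave 7 and 6 lower there, and plain ratios 2 and 2. limma called 2 higher with spike-in scaling or no filter (1 before), and 1 lower with no filter (0 before). Among all genes, the share of higher among 2-fold calls went from 81.6% to 95.6% with spike-in scaling and 92% with normexp in TR15_MeTA5, and from 61.2% to 50.6% with quantile normalization and 46.6% with normexp among the -Tet arrays. The median log2 ratio of all genes among the -Tet arrays moved by -0.10 and -0.11 under quantile normalization and normexp. The causes of these shifts were not tested. Over all probes limma's calls moved more, from 593 higher and 3 lower to 182 and 0 where a probe had to pass on every array, 1302 and 7 with spike-in scaling and 1269 and 56 with no filter. Over all genes, 2-fold calls in TR15_MeTA5 (1402 higher, 317 lower) became 807 and 179 under that stricter filter, which keeps 12694 genes, and 914 and 79 with normexp.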
